A study of Mus musculus with 4 samples.

Results

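Transcripts of 8 chemokine ligand genes, Ccl2, Ccl3, Ccl4, Ccl5, Ccl6, Ccl9, Cxcl1 and Cxcl2, were measured on 4 mouse microarrays, each hybridised with RNA of 1 sorted bone marrow population. The genes were taken by symbol from the platform annotation, and all 8 had at least 1 probe set of their own, out of 12393 genes named on the array. Ccl6 and Ccl9 each had 2 probe sets and the other 6 genes had 1, which makes 10 probe sets. None of the 10 was shared with another gene in that annotation. The series addresses the role of the transcriptional repressor Gfi1 in separating monocytes from granulocytes.

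All animals were untreated C57BL/6 mice, backcrossed for at least 10 generations, 8 weeks old and housed free of specific pathogens. Every one carried a GFP reporter knocked into the Gfi1 locus on 1 or both alleles, and no wild-type population was among the 4. The first population was CD11b+, Gr1-low cells of a GFP:Gfi1 KI/KI mouse, which has no functional Gfi1 (called here Gfi1-deficient Gr1-low cells). The labels give no GFP gate for it, so that genotype and gate cannot be told apart in its comparisons. The others came from GFP:Gfi1 KI/WT mice and were CD11b+, Gr1-low, GFP-high cells, CD11b+, Gr1-low, GFP-low cells, and CD11b+, Gr1-high granulocytes. How many animals gave each RNA is not given in the sources used here. With 1 array per population there is no replicate error, no test was possible and no p-value is given.

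Chemokines are small secreted proteins that guide leukocytes through G protein-coupled receptors. In the CC class the first conserved cysteines are adjacent, and in the CXC class a single residue lies between them. Ccl2 acts on Ccr2 and draws monocytes out of the bone marrow. Ccl3 and Ccl4 are inflammatory chemokines of macrophages and lymphocytes, and Ccl3 acts on Ccr1. Ccl5 acts on Ccr1 and Ccr3. Ccl6 and Ccl9 are ligands of Ccr1 that are abundant in rodent myeloid cells. Cxcl1 and Cxcl2 act on Cxcr2 and recruit neutrophils. In the order of genes on assembly GRCm38.p6, Ccl5, Ccl9, Ccl6, Ccl3 and Ccl4 follow each other on chromosome 11 with 0 other protein-coding genes between them. Ccl2 lies on the same chromosome, 30 protein-coding genes away from Ccl5. Cxcl1 and Cxcl2 are direct neighbours on chromosome 5.

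The 250 bases before the start of 4 of these genes are shown because neighbouring pairs in the genome had unlike values across the arrays. Ccl9 and Ccl6 lie next to each other, and granulocytes were low for Ccl9 and high for Ccl6, while Cxcl2 varied over the arrays and Cxcl1 was low on each. The sequences are those of RefSeq on GRCm38.p6, in the direction of the gene, and 5 of the 8 genes (Ccl3, Ccl6, Ccl9, Cxcl1 and Cxcl2) had a window in the table used. Capitals mark matches to the motifs searched.
Ccl9 (chr11:83578637-83578886, minus strand): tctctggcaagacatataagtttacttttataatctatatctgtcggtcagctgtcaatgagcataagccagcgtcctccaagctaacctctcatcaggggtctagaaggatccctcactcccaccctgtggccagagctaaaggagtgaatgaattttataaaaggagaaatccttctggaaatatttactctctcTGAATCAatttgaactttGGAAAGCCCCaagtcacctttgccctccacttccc
Ccl6 (chr11:83593088-83593337, minus strand): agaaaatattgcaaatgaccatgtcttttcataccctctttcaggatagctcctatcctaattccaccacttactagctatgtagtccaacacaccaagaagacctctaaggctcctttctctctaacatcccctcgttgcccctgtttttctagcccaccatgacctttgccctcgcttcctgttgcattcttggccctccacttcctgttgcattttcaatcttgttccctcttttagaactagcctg
Cxcl1 (chr5:90890995-90891244, plus strand): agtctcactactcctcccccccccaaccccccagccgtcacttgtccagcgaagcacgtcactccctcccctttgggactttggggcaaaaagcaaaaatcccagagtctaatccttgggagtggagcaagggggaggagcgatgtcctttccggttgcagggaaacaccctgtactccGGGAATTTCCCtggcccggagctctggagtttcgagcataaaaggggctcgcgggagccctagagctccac
Cxcl2 (chr5:90903649-90903898, plus strand): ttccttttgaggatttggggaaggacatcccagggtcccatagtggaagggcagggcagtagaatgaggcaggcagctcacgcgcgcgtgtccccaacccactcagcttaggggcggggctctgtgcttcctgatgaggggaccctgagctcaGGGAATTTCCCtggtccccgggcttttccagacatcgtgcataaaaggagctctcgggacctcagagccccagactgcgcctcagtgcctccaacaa

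The windows searched ran from 250 bases before to 50 bases after the start, on both strands. The kappaB consensus, the site of NF-kappaB factors, was matched in 3 of the 5 windows and in 8.46% of all 32851 promoter windows. In Cxcl1 and Cxcl2 the match was the same run, GGGAATTTCC, which began 71 bases before the start of Cxcl1 and 97 bases before that of Cxcl2. In both genes a match on the opposite strand overlapped it, shifted by 1 base. In Ccl9 a match on the opposite strand began 35 bases before the start, and the AP-1 motif TGANTCA was matched 53 bases before it, in 1 of 5 windows against 7.81% of all windows. The Gfi1 core AAATCA was matched in 0 of 5 windows and in 14.0% of all windows. The C/EBP motif TTGCNNAA was matched in 0 of 5 and in 10.8%. Ccl3 and Ccl6 held no match to these motifs in this window. A match describes letters only.

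**Figure D1:**
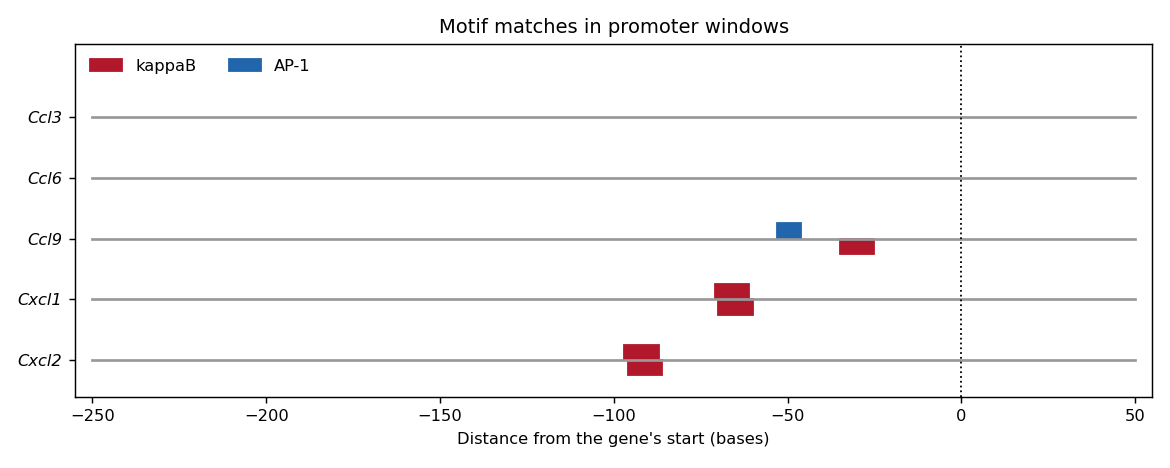
Positions of motif matches in the promoter windows of 5 chemokine ligand genes. The horizontal axis is the distance from the gene's start in bases, boxes above each line are matches on the gene's strand and boxes below it on the opposite strand. Cxcl1 and Cxcl2 each show 2 overlapping kappaB matches, Ccl9 shows 1 kappaB and 1 AP-1 match, and Ccl3 and Ccl6 show none.

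The deposited values are log2 expression values per probe set, with array medians between 5.91 and 6.01. Where a gene had several probe sets, the one highest on average stood for it. The 40th percentile of all values, 5.18, served as a floor for low signals, and lower values were raised to it before differences were taken. A log2 difference of 1 or more (2-fold) was counted as a difference by a rule of size. The only error estimate the data give is the scatter between 2 probe sets of a gene, over 2584 genes, whose SD ran from 0.16 to 0.38 log2 units depending on the pair of arrays. It says nothing of the spread between animals. Array values of different probe sets are not on a common scale, so each gene is compared with itself across arrays.

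The labels were set against marker genes first. Gfi1 itself read 10.31 in GFP-high cells, 7.31 in granulocytes, 5.18 in Gfi1-deficient cells, which is at the floor, and 3.74 in GFP-low cells, below it. Whether its probe set lies within the replaced part of the gene was not tested. The 9 monocyte markers, among them the fibronectin gene Fn1 and the transcription factor gene Irf8, were all at least 2-fold lower in GFP-high than in GFP-low cells, with a median log2 difference of -4.15. The summed level of a list is log2 of the sum of floored values, so that markers at the floor still count. For the monocyte markers it was 15.51 in Gfi1-deficient, 15.66 in GFP-low and 11.27 in GFP-high cells and 12.53 in granulocytes. Among 10 neutrophil markers, GFP-high cells exceeded GFP-low cells 2-fold or more for 8, with summed levels of 16.83, 16.66, 15.16 and 14.53 in GFP-high cells, granulocytes, GFP-low and Gfi1-deficient cells. The brightest probe sets weigh most in a sum, and near sums can cover opposite differences. Gfi1-deficient exceeded GFP-low cells for 3, Mpo, Elane and Prtn3 (3.34, 2.44 and 2.28), and were lower for 4, among them Ltf (-4.82) and Camp (-5.04). Granulocytes were lower than GFP-high cells for 3, Mpo, Elane and Prtn3 (-4.31, -4.91 and -5.07), and higher for 3. For 4 of 5 eosinophil markers measured, the GFP-high array exceeded the GFP-low array by the 2-fold rule. The eosinophil sum was 12.73 in GFP-high, 10.99 in Gfi1-deficient and 8.57 in GFP-low cells and 8.77 in granulocytes. Of 10 macrophage markers, 4 read higher on the GFP-high than on the GFP-low array and 1 lower. Among the higher ones was the adhesion molecule gene Vcam1 (10.66 against 6.07). The GFP-high array thus went against the name monocyte in the labels and is called GFP-high Gr1-low cells. The Gfi1-deficient array also differed in sex-linked transcripts, with Xist at 5.80 against 9.56 to 10.93 on the others and the Y-linked Eif2s3y at 8.31 against 3.40 to 4.39. The part of these differences in the chemokine values was not tested.

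In all, 7 of the 8 chemokine ligands exceeded the floor on 1 or more arrays, and 6 on all 4. The GFP-high array held the lowest value of 5 of these 7 genes and the highest of none. The patterns could be told apart by where the high values lay. Ccl9, Ccl3 and Ccl2 were high on both the GFP-low and the Gfi1-deficient array. Ccl6 and Ccl4 were similar on all arrays but GFP-high. Cxcl2 was highest in granulocytes.

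**Figure D2:**
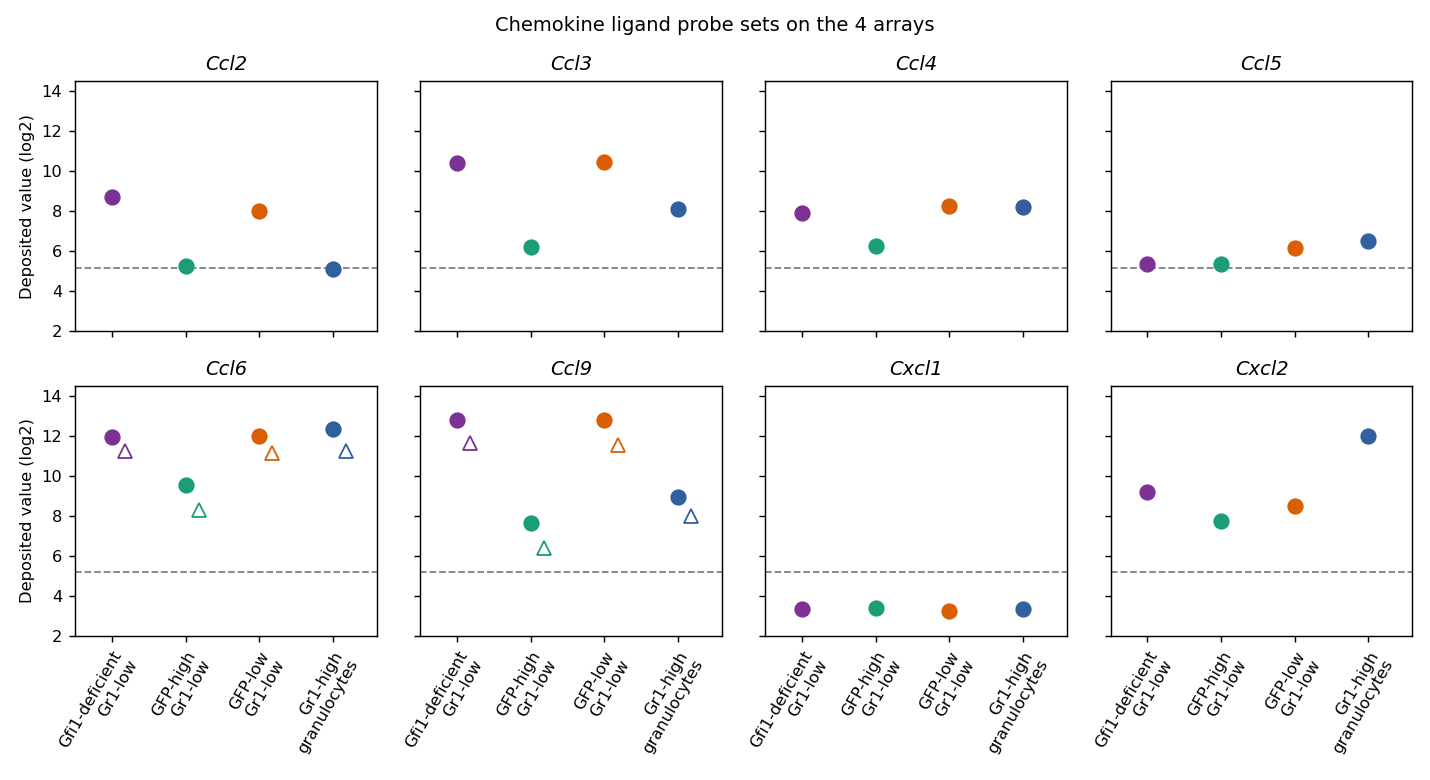
Deposited log2 values of the 8 chemokine ligand genes on the 4 arrays, 1 array per population. Filled circles are the probe set that stands for the gene, open triangles the second probe set of Ccl6 and Ccl9, and the dashed line is the floor of 5.18. Ccl9 falls from 12.77 in GFP-low to 7.64 in GFP-high cells, Cxcl2 reaches 12.00 in granulocytes, and Cxcl1 lies below the floor on each array.

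Ccl9, a Ccr1 ligand of myeloid cells, read 12.78 in Gfi1-deficient, 12.77 in GFP-low and 7.64 in GFP-high cells and 8.94 in granulocytes. The first 2 arrays differed by 0.01 and so by less than the scatter between probe sets, while GFP-high cells and granulocytes were far below them and apart from each other. The second probe set of Ccl9 read 11.66, 11.54, 6.37 and 7.98 on the same arrays and gave the same order. Between GFP-high and GFP-low cells the probe sets differed by -5.13 and -5.17, or 34.9-fold and 36.0-fold. Only 8 of 8232 genes measured in that comparison, Ccl9 among them, had a difference as low. In granulocytes Ccl9 was 14.2-fold lower than in GFP-low cells and 2.46-fold higher than in GFP-high cells.

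Ccl3, an inflammatory chemokine also called MIP-1 alpha, read 10.40 in Gfi1-deficient, 10.45 in GFP-low and 6.22 in GFP-high cells and 8.11 in granulocytes. As for Ccl9, the Gfi1-deficient and GFP-low arrays were high and close together, granulocytes lay below them and GFP-high cells were lowest. Ccl3 was 18.7-fold lower in GFP-high and 5.07-fold lower in granulocytes than in GFP-low cells, and GFP-low and Gfi1-deficient cells differed by 0.05 log2 units, less than the scatter of 0.16. In granulocytes it was 3.69-fold higher than in GFP-high cells. With a floor at the 60th percentile (6.81) the log2 difference of Ccl3 between GFP-high and GFP-low cells became a bound of -3.64, against -4.22.

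Ccl2, the Ccr2 ligand, read 8.69 in Gfi1-deficient, 8.00 in GFP-low and 5.26 in GFP-high cells and 5.09 in granulocytes. Granulocytes lay below the floor and GFP-high cells 0.08 above it, so these arrays could not be told apart. Ccl2 was 6.67-fold lower in GFP-high cells and at least 7.07-fold lower in granulocytes than in GFP-low cells. Gfi1-deficient cells exceeded GFP-low cells by 0.69, which was over 2 times the scatter of 0.16 and under the 2-fold rule. With a floor at the 60th percentile (6.81) the difference between GFP-high and GFP-low cells became a bound of -1.19, against -2.74.

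Ccl6, a Ccr1 ligand, read 12.33 in granulocytes, 11.95 in Gfi1-deficient, 11.99 in GFP-low and 9.53 in GFP-high cells. GFP-high cells were low, and the other 3 arrays lay within 2 times the scatter of their pair. The second probe set read 11.25, 11.22, 11.14 and 8.31 in the same order of arrays. The probe sets gave 5.49-fold and 7.10-fold lower values in GFP-high than in GFP-low cells. In granulocytes Ccl6 was 6.99-fold higher than in GFP-high cells, and it exceeded GFP-low cells by 0.35, about the scatter of 0.34. Its neighbour Ccl9 had a difference of -3.83 between the same arrays.

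Ccl4, also called MIP-1 beta, read 8.24 in GFP-low cells, 8.19 in granulocytes, 7.93 in Gfi1-deficient and 6.27 in GFP-high cells. As for Ccl6, only the GFP-high array stood below the rest, by 3.92-fold against GFP-low cells and 3.77-fold against granulocytes. The remaining differences, up to 0.31, lay within 2 times the scatter. Ccl4 therefore differed by -0.05 between granulocytes and GFP-low cells, where Ccl3, next to it on the chromosome, differed by -2.34.

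Ccl5, known as RANTES and abundant in T cells and platelets, was close to the floor, with 6.53 in granulocytes, 6.16 in GFP-low, 5.37 in GFP-high and 5.34 in Gfi1-deficient cells. Gfi1-deficient and GFP-high cells differed by 0.03. Granulocytes were 2.23-fold above GFP-high and 2.28-fold above Gfi1-deficient cells, and GFP-high minus GFP-low cells gave -0.79, under the 2-fold rule. Of 5 T cell markers with a probe set, 3 were above the floor in granulocytes and in GFP-high cells and 2 on the other arrays. Their summed level was 9.31 in granulocytes and between 7.94 and 8.38 elsewhere, with Cd3d at 8.48 in granulocytes and 4.98 to 6.23 elsewhere and Cd3g and Cd8a below the floor on all arrays. B cell markers summed to 9.30 in granulocytes against 8.15 to 8.70, with Pax5 below the floor throughout. NK cell markers summed to 7.50 to 7.69, with Ncr1 and Gzmb below the floor throughout. The 7.50 of Gfi1-deficient cells is a sum of floor values alone, with 0 NK cell markers above the floor. Erythroid markers summed to 9.61 in granulocytes, 9.11 in GFP-low, 8.47 in GFP-high and 8.25 in Gfi1-deficient cells. That is the same order as Ccl5, whose lowest pair lay within the scatter. The order was not particular to erythroid markers. In the same order of arrays the B cell sums were 9.30, 8.70, 8.27 and 8.15. The NK cell sums were 7.69, 7.62, 7.55 and 7.50. Of the 3 erythroid markers with a probe set, 2 exceeded the floor, and the globin gene Hba-a1 was below it on all arrays. Platelet markers summed to 8.77 in granulocytes and 8.18 to 8.53 elsewhere. The part of these cells in the Ccl5 values was not tested.

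Cxcl2, a Cxcr2 ligand also called MIP-2, read 12.00 in granulocytes, 9.17 in Gfi1-deficient, 8.48 in GFP-low and 7.72 in GFP-high cells. Granulocytes stood far above the rest, and each step between neighbours in this order was over 2 times the scatter of its pair. Cxcl2 was 11.5-fold higher in granulocytes than in GFP-low cells, 19.3-fold above GFP-high cells and 7.11-fold higher than in Gfi1-deficient cells. Only 12 of 8457 genes, Cxcl2 among them, were as far above GFP-high cells. Cxcl1, which acts on the same receptor, was below the floor on each array, with 3.42 in GFP-high cells, 3.33 in granulocytes, 3.32 in Gfi1-deficient and 3.26 in GFP-low cells, so no fold is given for it.

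The comparison of GFP-high with GFP-low cells, which share genotype and Gr1 gate, gave 5 of 7 measured ligands at least 2-fold lower (Ccl2, Ccl3, Ccl4, Ccl6 and Ccl9) and 0 higher. Of all genes measured there, 9.61% were lower and 9.03% higher by that rule. The median difference of the 7 ligands was -2.46, beside 0.03 over all genes. In these bulk populations, fewer cells that make a ligand and less RNA per cell cannot be told apart. The 9 monocyte markers were all lower in the same comparison.

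Granulocytes against GFP-low cells divided the ligands. Ccl2, Ccl3 and Ccl9 were at least 2-fold lower, 3 of 7, where 18.2% of all genes were. Cxcl2 was higher, 1 of 7, where 10.0% of all genes were. Ccl4, Ccl5 and Ccl6 had differences of -0.05, 0.37 and 0.35 (log2). The median over the 7 was -0.05, beside 0.00 over all genes. Monocyte markers were lower for 9 of 9 and neutrophil markers higher for 6 and lower for 1 of 10 in this comparison.

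Granulocytes against GFP-high cells gave 6 of 7 ligands at least 2-fold higher and 0 lower, where 8.93% of all genes were higher and 16.4% lower. Cxcl2 differed by 4.27, Ccl6 by 2.80, Ccl4 by 1.92, Ccl3 by 1.88, Ccl9 by 1.30 and Ccl5 by 1.15, each on the log2 scale. Ccl2 was the exception, near the floor in both. The median was 1.88, beside 0.03 over all genes, and 2 of the 6 reached 4-fold. With the floor at the 60th percentile 5 were higher, since Ccl5 was then at the floor on both arrays. Monocyte markers were higher for 4 of 9 and eosinophil markers lower for 4 of 5 measured. Neutrophil markers were higher for 3 and lower for 3 of 10, and macrophage markers lower for 4 of 10 and higher for 0.

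Gfi1-deficient against GFP-low cells gave 0 of 7 ligands past 2-fold in either direction, in a comparison where 0.637% of all genes were higher and 1.27% lower. The median was -0.04, beside 0.03 over all genes. Ccl2 and Cxcl2 differed by 0.69 each and Ccl5 by -0.82, all beyond 2 times the scatter of 0.16, and they lay outside the range from -0.49 to 0.48 that held the central part of all genes, between the 5th and the 95th percentile. Ccl3, Ccl4, Ccl6 and Ccl9 lay within it. Monocyte markers were lower for 1 of 9 and higher for 0. Neutrophil markers were higher for 3 and lower for 4 of 10, and eosinophil markers higher for 3 of 4 measured and lower for 0.

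Gfi1-deficient against GFP-high cells gave 6 of 7 ligands at least 2-fold higher and 0 lower, where 9.53% of all genes were higher and 7.81% lower. Ccl9 was 35.2-fold, Ccl3 18.1-fold, Ccl2 10.8-fold, Ccl6 5.35-fold, Ccl4 3.15-fold and Cxcl2 2.72-fold higher, and Ccl5 differed by -0.03. The log2 difference of Ccl2, near the floor in GFP-high cells, was 3.43 and became a bound of 1.88 under a 60th percentile floor. Under that floor the differences of Ccl3 and Ccl4 became bounds of 3.59 and 1.12, against 4.18 and 1.66. The median was 2.42, beside -0.02 over all genes. This comparison and that of GFP-high with GFP-low cells share the GFP-high array, so that their values are not independent. All 9 monocyte markers were higher in Gfi1-deficient cells here and 9 of 10 neutrophil markers lower.

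Granulocytes against Gfi1-deficient cells gave Cxcl2 and Ccl5 at least 2-fold higher, 2 of 7, where 11.2% of all genes were. Ccl2 (at least 11.4-fold), Ccl9 (14.3-fold) and Ccl3 (4.90-fold) were lower, 3 of 7, where 20.3% of all genes were. The median was 0.26, beside -0.01 over all genes, and turned to -0.81 with the floor at the 60th percentile, where Ccl5 was at that floor on both arrays. Monocyte markers were lower for 8 of 9, and neutrophil markers higher for 7 and lower for 3 of 10.

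**Figure D3:**
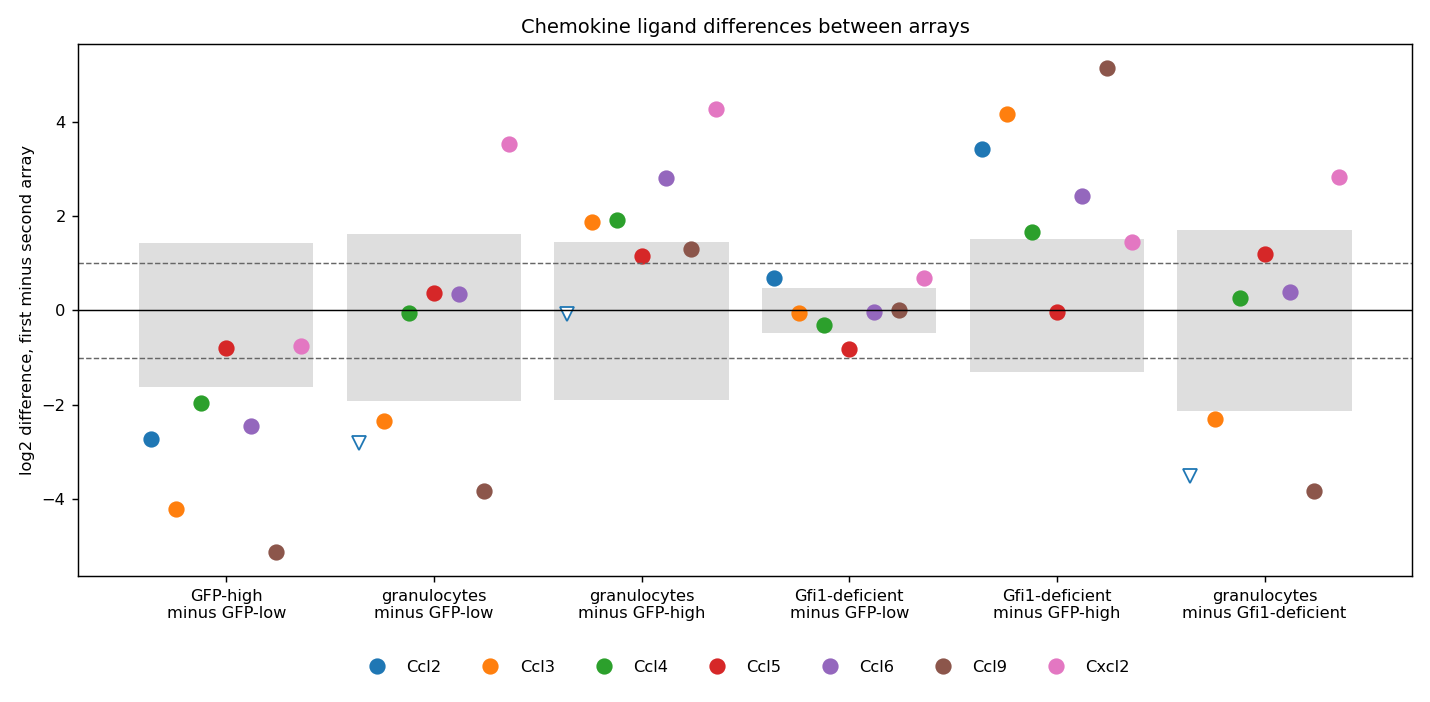
Log2 differences of the 7 measured chemokine ligands in the 6 comparisons of arrays, first minus second. Grey boxes span the 5th to the 95th percentile of all genes measured, dashed lines mark 2-fold, and open triangles are bounds where 1 array was at the floor. Ccl9 lies at -5.13 for GFP-high minus GFP-low cells and Cxcl2 at 4.27 for granulocytes minus GFP-high cells, while all 7 lie within 2-fold for Gfi1-deficient minus GFP-low cells.

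Values are given for 4 receptors that signal for these ligands, each with a probe set assigned to it alone. Ccr2, the receptor of Ccl2, read 12.33 in Gfi1-deficient, 12.32 in GFP-low and 6.75 in GFP-high cells and 8.06 in granulocytes, so that ligand and receptor were both high on the first 2 arrays. Ccr2 is also 1 of the 9 monocyte markers. Ccr1, the receptor of Ccl3, Ccl6 and Ccl9, read 12.13 in granulocytes, 10.75 in Gfi1-deficient, 9.57 in GFP-low and 9.51 in GFP-high cells. Ccr1 therefore differed by -0.06 between GFP-high and GFP-low cells, where these 3 ligands were lower by 2.46 to 5.13 log2 units. Cxcr2 read 12.40 in granulocytes, 8.79 in GFP-high, 6.68 in GFP-low and 6.04 in Gfi1-deficient cells. It was higher in GFP-high than in GFP-low cells by 2.11 log2 units, where its ligand Cxcl2 differed by -0.75. Ccr3, the eosinophil receptor, was above the floor only in GFP-high cells, at 5.75.

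**Figure D4:**
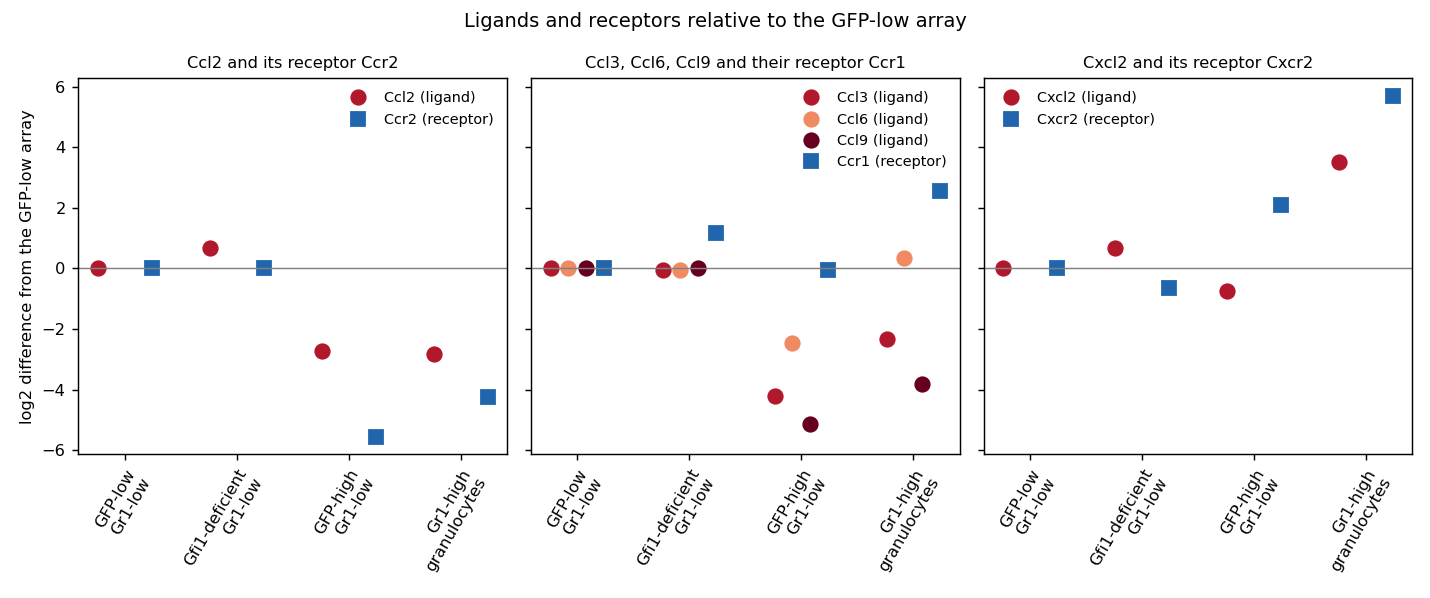
Log2 differences from the GFP-low array for ligands (circles) and the receptor they act on (squares), on the 4 arrays. Ccl2 and Ccr2 are both low in GFP-high cells and granulocytes, Ccr1 is at -0.06 in GFP-high cells where Ccl3, Ccl6 and Ccl9 are at -4.22, -2.46 and -5.13, and Cxcl2 and Cxcr2 are both highest in granulocytes.

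Of 18 other chemokine receptors, 8 exceeded the floor on 1 or more arrays. Between GFP-high and GFP-low cells 2 of 6 measured were at least 2-fold lower and 0 higher, where 9.61% and 9.03% of all genes were. Cx3cr1, the fractalkine receptor of monocytes, read 9.82 in Gfi1-deficient, 10.78 in GFP-low and 5.71 in GFP-high cells and 6.64 in granulocytes. Ccrl2, named after its values were seen, was the other and differed by -1.88. Granulocytes against GFP-low cells gave 1 of 8 lower, Cx3cr1, where 18.2% of all genes were lower. Gfi1-deficient against GFP-low cells gave 0 of 6 past 2-fold, where 0.637% of all genes were higher and 1.27% lower.

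Of 28 other chemokine ligands, 25 had a probe set assigned to them alone and 14 exceeded the floor on 1 or more arrays. Cxcl10, an interferon-induced ligand of Cxcr3, read 7.71 in GFP-low cells, 5.87 in granulocytes, 5.55 in GFP-high and 5.34 in Gfi1-deficient cells. It was the only one of the 25 at least 4-fold apart between any pair of arrays, and it was high on the GFP-low array alone. Its log2 difference between Gfi1-deficient and GFP-low cells was -2.36, where 0 of the 7 measured ligands described above reached 2-fold. Cxcl12, named after its values were seen, passed 2-fold in granulocytes (6.22) against GFP-high cells (below the floor at 4.99). Ccl7 and Ccl12, which are close relatives of Ccl2, were below the floor on all 4 arrays, as was Cxcl5, another Cxcr2 ligand.

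The genes whose values ran most like each ligand over the 4 arrays were found among 8621 genes by the root mean square difference of mean-centred log2 values. For Ccl9 they were the membrane protein genes Ms4a6b (0.084) and Ms4a4c (0.21), and for Ccl3 the thrombomodulin gene Thbd (0.054) and the receptor gene Gpr35 (0.10), both below the floor in GFP-high cells. For Ccl2 they were the aryl hydrocarbon receptor gene Ahr (0.11) and the lysosomal amidase gene Naaa (0.17). Ahr read 3.80 in granulocytes, below the floor as Ccl2 was, so its likeness there is one of floored values. For Ccl6 they were Myadm (0.089) and the interferon-induced GTPase gene Gbp2 (0.13), and for Ccl4 the interferon gamma receptor chain gene Ifngr2 (0.044) and Trim26 (0.045). For Ccl5 they were the erythroid transcription factor gene Klf1 (0.071) and the lymphocyte surface protein gene Cd7 (0.10), and for Cxcl2 Ifitm1 (0.26) and the receptor gene Hcar2 (0.39). Among the ligands themselves the nearest pairs by this measure were Ccl4 with Ccl6 (0.34), Ccl4 with Ccl5 (0.62) and Ccl3 with Ccl9 (0.65). The measure is not scaled to a gene's range, so genes that vary little lie close to many others. Ccl5 ranged over 1.19 log2 units and Ccl4 over 1.97, against 4.22 for Ccl3 and 5.14 for Ccl9. Many of the 8621 genes lay nearer to Ccl5 than Ccl4 did, while few lay nearer to Ccl9 than Ccl3 did. The value of 0.62 therefore does not mark Ccl4 and Ccl5 as alike. All likeness values describe 4 points each.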

How the data were processed

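RNA of 4 sorted mouse bone marrow populations was measured on 1 array each. TRIzol was used to extract total RNA, of which 6 µg gave biotin-labelled cRNA for Affymetrix arrays, per the labels' protocols. The authors' deposited values are taken as log2 from their range, since the log base is not stated. How the authors summarised and normalized them is not given in the sources used here, and values near the top of the scale may be compressed. The number of arrays limits the precision.

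Of 22690 probe sets, 20393 were named by 1 gene in the platform annotation (annotated symbols, 0 changed through gene identifiers to GRCm38.p6), 691 by several and 1606 by none, and only the first were used. Values were floored, and the probe set highest on average stood for a gene. Differences, counts by size, probe set scatter, likeness and motif matches were computed in Python 3.11.15 with NumPy 2.4.6 and pandas 2.3.3. The call rule was tested on simulated data. By rule, all members and the 2 genes nearest to each ligand were named, and list genes at least 4-fold apart between any 2 arrays could be. Other list genes, among them Ccr3 and markers or ligands below the floor, were named after their values were seen. The members, gene lists and rules were chosen with earlier results of these data known. The alternatives were other floors, scalings, probe set choices and a 4-fold rule. Protein sequences were not used here.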

Additional observations from a re-analysis of the deposited data

How the results depend on the processing

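Each ligand's difference was recomputed under other floors, no floor, quantile normalization, median centring, the mean of all probe sets and specific probe sets only. Of 287 such values, 277 moved by less than the probe set scatter, 10 moved by more and 0 of those past 2-fold changed sign. Many of the 277 could not move. Specific probe sets only kept the same probe set for each ligand, and the mean of all probe sets could alter Ccl6 and Ccl9 alone. The floor at the 20th percentile and no floor altered only Ccl2 in comparisons with granulocytes. The count is therefore no measure of robustness. The 10 were differences of Ccl2, Ccl3 and Ccl4, and all came from the floor at the 60th percentile. That floor gave median differences of -1.95 for GFP-high minus GFP-low cells, -0.62 for granulocytes minus GFP-low, 1.38 for granulocytes minus GFP-high, 2.15 for Gfi1-deficient minus GFP-high and -0.81 for granulocytes minus Gfi1-deficient cells, and 5 or 6 ligands remained measured. For granulocytes against Gfi1-deficient cells it left 1 ligand past 2-fold upward. The 4-fold rule gave 1 there too, and 2 for granulocytes against GFP-high cells. The median for Gfi1-deficient minus GFP-high cells was 2.04 without a floor, and 2.04 with Cxcl1 counted as 0, an alternative chosen after seeing the data. No paired analysis was possible because each group has 1 array. Ccl2, Ccl5 and Cxcl1 had signals at or near the floor on 1 or more arrays, which limits what can be said of them. Ccl3 and Ccl4 lay below the 60th percentile floor in GFP-high cells, so the size of their differences from that array depends on the floor.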

Other observations

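Early response and inflammatory genes, several of which respond to the same stimuli as Ccl3, Ccl4 and Cxcl2, were read on the same arrays, with 20 of 22 above the floor. In GFP-high against GFP-low cells 12 of 20 were at least 2-fold lower and 2 higher, with a median log2 difference of -1.17. Of all genes 9.61% were lower and 9.03% higher there, so that the share of higher genes was about that of all genes. Atf3, a transcription factor gene of the stress response, read 10.81 in Gfi1-deficient, 11.09 in GFP-low and 6.00 in GFP-high cells and 8.07 in granulocytes. Junb, an AP-1 subunit gene, read 10.56 in Gfi1-deficient, 10.91 in GFP-low and 8.41 in GFP-high cells and 12.16 in granulocytes. Icam1, an adhesion molecule gene, read 7.82 and 7.50 in GFP-low and Gfi1-deficient cells against 5.31 in GFP-high cells and 5.50 in granulocytes. The 2 higher genes were Egr1, with 9.93 against 8.25, and Tnf, with 7.38 against 6.23, the latter named after its values were seen. Tnf, the tumour necrosis factor gene, was thus higher in GFP-high cells while Ccl3 and Ccl4 were lower.

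In granulocytes against GFP-low cells 7 of 20 of them were higher by the 2-fold rule and 4 lower (median 0.53), where 10.0% of all genes were higher and 18.2% lower. Il1b, the interleukin-1 beta gene, read 12.56 in granulocytes, 7.63 in Gfi1-deficient, 7.92 in GFP-low and 6.80 in GFP-high cells. Ptgs2, the inducible cyclooxygenase gene, read 10.90 in granulocytes, 7.78 in GFP-low and 7.22 in Gfi1-deficient cells and was below the floor in GFP-high cells. Dusp1, a phosphatase gene of the early response, read 13.46, 12.93, 12.87 and 11.27 in granulocytes, GFP-low, Gfi1-deficient and GFP-high cells. In Gfi1-deficient against GFP-low cells 1 of 20 was higher, Ier3 with a difference of 1.93, and 1 lower, Cd83 with a bound of -1.45, both named after their values were seen, where 0.637% of all genes were higher and 1.27% lower. The median there was -0.29.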
